A study of Homo sapiens with 2 samples.

Results

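The genes described here are 8 members of the AP-1 and ATF group of transcription factors: FOS, FOSL2, JUN, JUNB, JUND, BATF, BATF3 and ATF4. Each was represented by a fixed stretch of the hg19 genome around it, 40 to 70 kb long and 420 kb in all, and its members were all accessible regions that overlapped this stretch. Of 55124 control regions 19 fell in the 8 spans, and of 41540 knockdown regions also 19. The spans were FOS chr14 75.72 to 75.77 Mb, BATF chr14 75.96 to 76.03 Mb, JUN chr1 59.22 to 59.27 Mb and JUNB chr19 12.88 to 12.92 Mb. The others were JUND chr19 18.37 to 18.41 Mb, FOSL2 chr2 28.59 to 28.66 Mb, BATF3 chr1 212.84 to 212.89 Mb and ATF4 chr22 39.89 to 39.94 Mb.

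AP-1 factors are basic leucine zipper proteins that bind DNA as dimers. FOS and JUN proteins pair with each other, and BATF and BATF3 pair with JUN proteins and, in lymphocytes, act together with IRF4. FOS, JUN and JUNB are classical immediate-early genes, whose transcription rises quickly when a B cell is stimulated. ATF4 belongs to the same superfamily and is known for driving the response to amino acid shortage and to stress of the endoplasmic reticulum. SWI/SNF complexes, of which SMARCA4 is a catalytic ATPase, slide and evict nucleosomes, and AP-1 is known to work with them at enhancers.

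Both libraries were ATAC-seq libraries, a transposase assay of open chromatin, from Z-138, an established mantle cell lymphoma line. One carried a control shRNA and the other an shRNA that knocks down SMARCA4, 1 library each, and both cultures received doxycycline. The labels name no further drug for either library. The peak names in both lists carry the term DMSO, a common solvent control. The knockdown was not measured in the peak lists. With 1 library per group there is no test and no p-value, and a difference has no replicate check. The knockdown library had 1.42 times as many reads in the peak calling, as recovered from the peak caller's values. The ratio of all reads sequenced is not known. A summit of equal accessibility should therefore show 1.34 times as many stacked reads in it, given the read extension of each list. Summits entered the control list from 3 reads upwards and the other list from 4 reads, so a region outside a list was under the caller's limit and not shown to be closed. B-cell identity was not checked against marker genes here.

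No genome sequence of hg19 was used, so the letters under the regions are not shown. For 7 of the 8 genes RefSeq gives the promoter on GRCh38.p14, and BATF3 was not matched. Those of FOS, JUN, JUND and BATF are printed, 250 bases up to the transcription start, because FOS and JUN held the members with the most stacked reads, JUND the widest, and BATF no region at all in the knockdown library. Capitals mark a TATA box (TATAAA) in FOS, a JUN-type site (TGACATCA) in JUN, a cAMP response element (TGACGTCA) in JUND and a match to an NF-kappaB site (GGGTTTTTCC) in BATF. The GRCh38.p14 positions cannot be set against the hg19 regions. Which region covers a promoter was therefore not determined.
FOS (chr14:75278578-75278827, + strand): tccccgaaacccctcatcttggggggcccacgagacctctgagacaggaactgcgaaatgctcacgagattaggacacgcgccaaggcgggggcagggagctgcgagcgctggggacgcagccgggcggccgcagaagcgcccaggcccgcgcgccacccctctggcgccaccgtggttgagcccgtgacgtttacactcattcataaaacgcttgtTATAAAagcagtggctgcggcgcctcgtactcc
JUN (chr1:58784048-58784297, - strand): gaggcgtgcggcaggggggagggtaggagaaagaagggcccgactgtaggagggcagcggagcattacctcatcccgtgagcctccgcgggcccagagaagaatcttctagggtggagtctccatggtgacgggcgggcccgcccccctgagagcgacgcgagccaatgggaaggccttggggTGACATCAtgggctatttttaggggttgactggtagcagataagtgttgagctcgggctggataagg
JUND (chr19:18281623-18281872, - strand): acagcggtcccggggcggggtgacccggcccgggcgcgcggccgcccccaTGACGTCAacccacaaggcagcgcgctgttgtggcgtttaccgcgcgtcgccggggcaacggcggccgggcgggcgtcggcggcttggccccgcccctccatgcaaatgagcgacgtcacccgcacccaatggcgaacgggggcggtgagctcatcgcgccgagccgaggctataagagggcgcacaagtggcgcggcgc
BATF (chr14:75522219-75522468, + strand): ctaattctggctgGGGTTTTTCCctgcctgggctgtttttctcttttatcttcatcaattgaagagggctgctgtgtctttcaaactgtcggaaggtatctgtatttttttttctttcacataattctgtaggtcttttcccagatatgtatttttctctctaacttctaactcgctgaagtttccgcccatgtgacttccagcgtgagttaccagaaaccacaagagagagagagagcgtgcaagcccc

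Over the 300 bases from 250 before to 50 after the start, the 7 promoters had a median G+C content of 64.7% and a median of 29 CpG dinucleotides, against 58.3% and 14 over 27305 promoters. BATF stood at the low end of the 7 with 46.0% G+C and 7 CpG, and JUND at the high end with 77.0% and 49. The JUN-type site, the sequence through which JUN dimers are known to act on their own gene, lay at position -67 of JUN, and 2.71% of all promoters hold this motif. The cAMP response element lay at position -200 of JUND (1.98% of all promoters), and the AP-1 site TGACTCA at position 5 after the start of FOSL2 (4.92%). A TATA box was present in FOS, JUNB and ATF4, 3 of 7, against 12% of all promoters. A GC box (GGGCGG) was present in 6 of 7 against 44.6%, CCAAT in 3 of 7 against 35.7%, and the E-box CACGTG in ATF4 alone against 7.43%. The match to the loose NF-kappaB pattern in BATF began at position -237, and 1.92% of all promoters hold that pattern. The amino acid response element TGATGNAA, the ETS site CCGGAAGT and the STAT site TTCNNNGAA, held by 3.67%, 4.44% and 7.88% of all promoters, had no match in the 7 windows. All motifs were searched on both strands, no match of one overlapped a match of another, and a match describes letters and not a bound site. Among 14 promoters of other AP-1 and ATF genes that could be matched, TGACTCA was found in DDIT3 and ATF5, TGACGTCA in MAFF and TGACATCA in BATF2. The accessibility of these other genes was not analysed here, except where they neighbour a span.

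In both libraries the FOS, JUN, JUNB, JUND, FOSL2 and ATF4 spans held accessible regions, whereas the BATF and BATF3 spans held them in the control library only. Of the 19 control regions in the spans, 13 were overlapped in the knockdown list, or 68.4% (95% Clopper-Pearson interval 43.4 to 87.4%). Over the genome 60.5% of control regions were overlapped and 39.5% had no partner, so the 6 of 19 without one are a share near the background. In the other direction 13 of the 19 knockdown regions had a control partner and 6 had none, where 20.6% of all knockdown regions have none. The spans held as many knockdown as control regions, 100% (50.1 to 200%), while the whole knockdown list had 75.4% of the control number. With each span widened by 20 kb on both sides the figure was 75.8%, from 25 and 33 regions, so the equal number belongs to the spans as drawn. Together the members covered 4864 bp in the control library, against 4934 bp with SMARCA4 knocked down, or 101.4%. Over the whole lists the knockdown regions covered 82.05% of the control length. No such figure is given for the widened spans. Intervals here and below cover counting error only, since amplified reads and neighbouring regions are not independent.

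**Figure D1:**
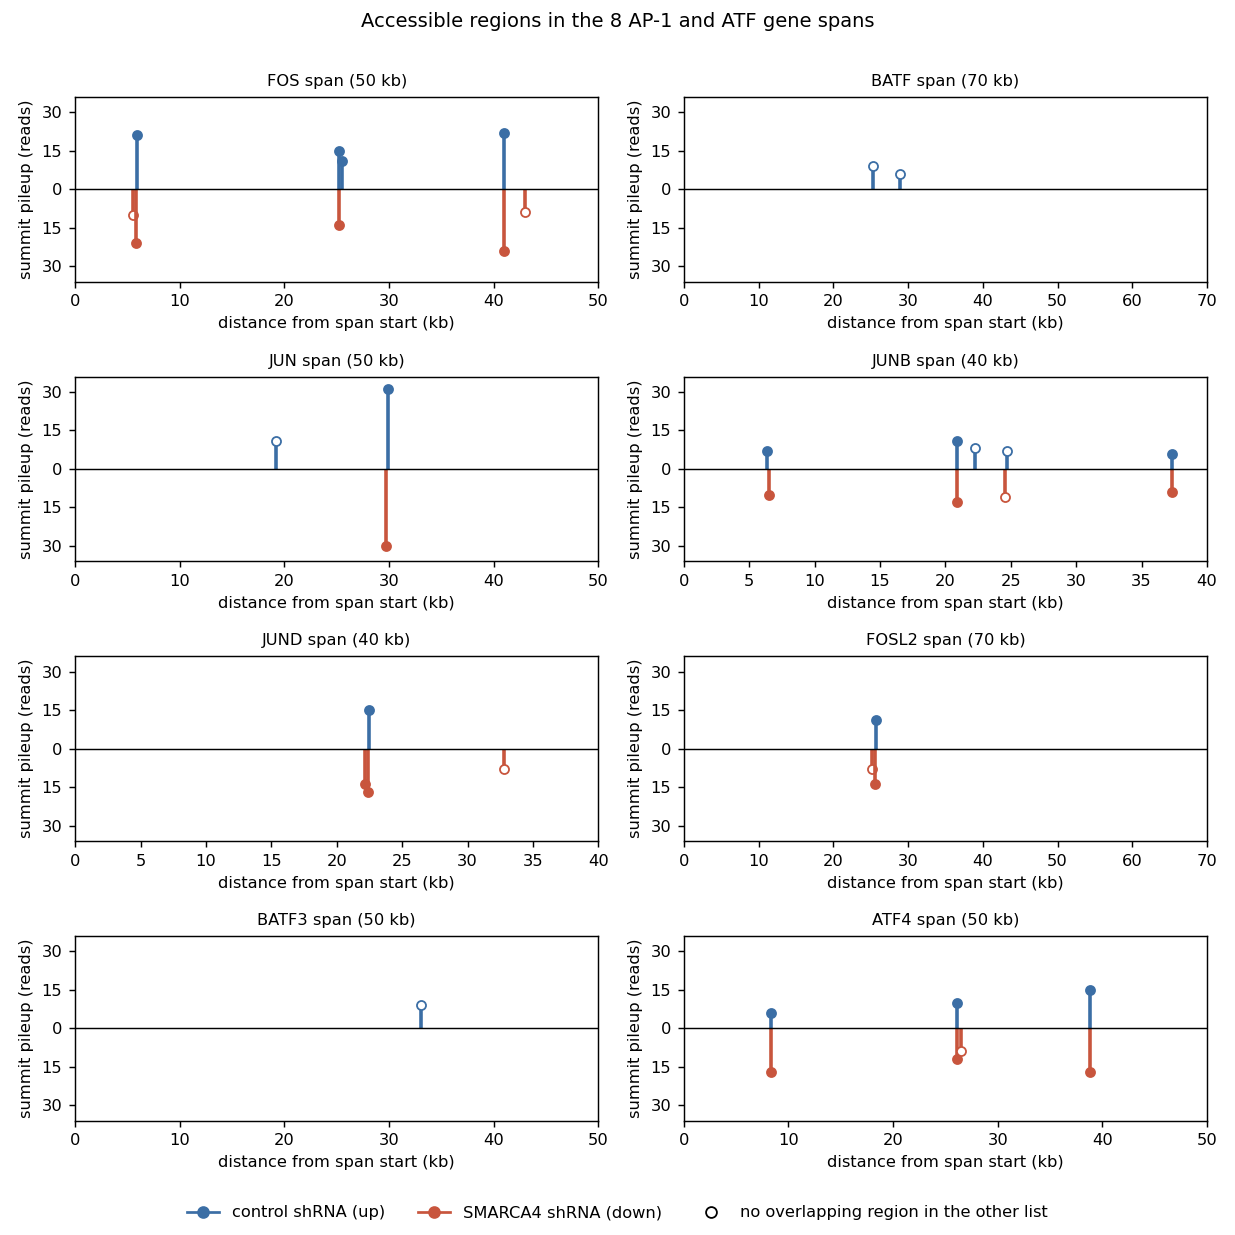
Summit pileup (reads stacked at the summit) of every region in the 8 spans against the distance from the start of the span in kb, control shRNA upwards in blue and SMARCA4 shRNA downwards in red; open circles have no overlapping region in the other list. FOS, JUN, JUNB, JUND, FOSL2 and ATF4 have filled circles on both sides, and BATF and BATF3 have open control circles only, at 6 to 9 reads.

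By subfamily, the number of control regions with a knockdown partner was as follows. In the FOS family (FOS and FOSL2) 5 of 5 had one, in the JUN family (JUN, JUNB and JUND) 5 of 8, at ATF4 3 of 3, and in the BATF family (BATF and BATF3) 0 of 3. The intervals were 47.8 to 100%, 24.5 to 91.5%, 29.2 to 100% and 0 to 70.8%. They overlap, which does not show that the shares are equal, and regions of a span are not independent. The 5 FOS family control regions met only 4 knockdown regions. The BATF family regions had folds of 7.52, 5.34 and 6.28. The 13 control members with a partner had folds from 5.42 to 14.4. Over all control regions the share with a partner rose with fold, from 17.7% below 4 to 98.9% at 15 or more. Whether fold bears on the missing partners of the BATF family was not tested.

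FOS encodes the dimer partner of JUN proteins that gives AP-1 its strong activating form. Its span held 4 control and 5 knockdown regions at 3 places. The most enriched region lay at chr14 75760791 to 75761111 in the control, with a fold over background of 14.4, 22 reads at the summit and a width of 321 bp. In the knockdown list it ran from 75760714 to 75761135 with a fold of 12.7 and 24 reads, and the summits were 1 bp apart. It stood in the top 4.11% of the control list and the top 9.90% of the knockdown list by fold. Scaled to depth, the log2 ratio of knockdown to control was -0.30 (-1.20 to 0.60). A second strong region, from 75725682 to 75726031, reached a fold of 13.7 among control regions and 12.3 among knockdown regions, with 21 reads in each library. Equal read numbers in a deeper library give a log2 ratio of -0.42 (-1.37 to 0.52), within counting error.

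The third place of the FOS span was arranged differently in the libraries. The control list had 2 regions, from 75745118 to 75745294 with 15 reads and from 75745437 to 75745699 with 11 reads, 0.142 kb apart. The knockdown list had 1 region of 532 bp from 75745143 to 75745674, with 14 reads, that spanned both. Under a rule of 50% overlap of both regions these no longer counted as partners, and the overlapped control regions at FOS fell from 4 to 2. Around this place the 10 kb window held 119 control reads and 115 knockdown reads. Scaled to read number, the log2 ratio of these local reads was -0.55 (-0.93 to -0.17), the one place among those of the 12 pairs with recovered local reads where the counting interval did not include equality. The knockdown list also had a pair of weaker regions at FOS without a partner. One, spanning 75725450 to 75725584, reached a fold of 6.14 with 10 reads and lay 97 bp from the control region next to it. The other had a fold of 5.15 and 9 reads, 1.82 kb from the nearest control region.

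FOSL2 encodes FRA2, a FOS family protein without the strong activation domain of FOS. Its span, among the longest with 70 kb, held 1 control region, from chr2 28615495 to 28615742, with a fold of 7.77 and 11 reads. The partner in the knockdown list, from 28615509 to 28615842, reached a fold of 8.05 with 14 reads. The log2 ratio was -0.08 (-1.32 to 1.21), so a difference was not detectable at this depth. A knockdown region of 89 bp, the smallest width of that list, with a fold of 4.85 and 8 reads, lay 345 bp from the control region. In the plot of summits it is the open circle beside the shared one.

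JUN encodes the partner of FOS and can also pair with itself. Its strongest region had the most stacked reads of all members, with 31 control reads and 30 knockdown reads. It ran from chr1 59249626 to 59250101 with a fold of 11.3 in the control, and from 59249656 to 59250068 with a fold of 9.16 in the knockdown list. The log2 ratio was -0.47 (-1.25 to 0.30), and 31.7% of all pairs in the genome had a ratio as low or lower. The 10 kb around it held 196 control and 268 knockdown reads, the most of any member in each library.

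About 10 kb away from it, JUN had the most enriched control region of the 8 spans that lacked a partner. It ran from chr1 59239036 to 59239374, 339 bp wide, with a fold of 8.90 and 11 reads. At equal accessibility 14.8 reads would be stacked in the knockdown library, and about 4 would have been enough to enter the list there. The 14.8 scales 11 reads of a region called in the control only, without a counting interval, and tends to be too high. The nearest knockdown region lay 10.3 kb away and was the strong JUN region itself. Among all control regions with a fold from 8 to below 10, 84.0% had a knockdown partner. Whether the second JUN region differs between cultures was not tested, as each group has 1 library.

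JUNB encodes a JUN protein that often restrains the activity of JUN. It had the largest number of control regions, 5, and 4 knockdown regions, all of modest strength. The most enriched in both lists ran from chr19 12886289 to 12886511 in the control (fold 6.02, 7 reads) and from 12886388 to 12886569 in the knockdown list (fold 7.21, 10 reads). The other pairs had 11 and 13 reads, and 6 and 9 reads. Their log2 ratios ranged from -0.18 to 0.16, and each interval included 0. A control region from 12904636 to 12904789 and a knockdown region from 12904352 to 12904609 missed each other by 26 bp and so counted as unpaired under the 1 bp rule. The other unpaired JUNB region, in the control list, had a fold of 4.49 and 8 reads, and 29.5% of control regions with a fold from 4 to below 5 had a partner. By RefSeq gene order HOOK2 and PRDX2 lie next to JUNB, so regions of its span can belong to neighbours.

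JUND encodes the JUN protein that most cells make without stimulation. It had the widest member and the one region of at least 600 bp in the spans, 674 bp from chr19 18392216 to 18392889 in the control list, with a fold of 6.83 and 15 reads. In the knockdown list this place was split in 2 regions, from 18392088 to 18392257 with 14 reads and from 18392362 to 18392732 with a fold of 6.39 and 17 reads. Against the stronger piece the log2 ratio was -0.24 (-1.33 to 0.86), equal to the median over all pairs. Local reads in 10 kb were 143 and 204, a ratio of 1.43 against 1.42 for the libraries. A further knockdown region with a fold of 5.90 and 8 reads lay 9.86 kb from the nearest control region. Scaled to the control library it would have 5.96 reads, and about 4 would have been enough to enter that list. The 5.96 carries no counting interval and tends to be too high, as the region was called in the knockdown list only.

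BATF encodes an AP-1 protein that is known for its part in antibody class switching and in T helper cells. Its 70 kb span held 2 control regions and 0 knockdown regions. They ran from chr14 75985209 to 75985310 with a fold of 7.52 and 9 reads, and from 75988787 to 75988986 with a fold of 5.34 and 6 reads. At equal accessibility 12.1 and 8.05 reads would be stacked in the knockdown library, where about 4 would have been enough at their local background. These figures scale control summits of 9 and 6 reads without a counting interval. They tend to be too high, since the regions were taken from the list that called them. Of control regions with folds from 7 to below 8 and from 5 to below 6, 72.5% and 48.3% had a partner. The nearest knockdown region was 55.2 kb from the second BATF region. The 2 regions had 35 and 33 control reads in the surrounding 10 kb, below the median of 44 over the control list, in which the 11339 regions at the lowest background were ranked lowest.

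The absence at BATF was part of a longer stretch. Between chr14 75763033 and 76044173, which is 281 kb from the last knockdown region of the FOS span to the next one beyond BATF, the knockdown list had no region and the control list had 7. These 7 had folds from 4.03 to 7.52 and summits of 4 to 9 reads. By RefSeq gene order the one protein-coding gene between FOS and BATF is JDP2, which encodes a repressor that pairs with JUN proteins. Of 41517 stretches between neighbouring knockdown regions, 59 or 0.142% held at least as many control regions, while 3.76% were at least as long. In the opposite direction, 0 of 55101 stretches between control regions held 7 or more knockdown regions. The control list is the longer one and the stretch was singled out after its values had been seen, so these shares are descriptions.

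BATF3, a close relative of BATF that is known from dendritic cell development, had 1 control region and 0 knockdown regions. It ran from chr1 212873030 to 212873139, 110 bp wide, with a fold of 6.28 and 9 reads. At equal accessibility 12.1 reads would be stacked in the knockdown library, and about 6 would have entered the list. The 12.1 scales 9 reads of a region called in the control only, without a counting interval, and tends to be too high. The nearest knockdown region lay 34.0 kb away. Among control regions with a fold from 6 to below 7, 62.3% had a partner. The knockdown list was empty over 126 kb around it, and 11.9% of its stretches hold as many control regions, here 2. By gene order GARIN4 separates BATF3 from ATF3 on one side, and NSL1 follows on the other.

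ATF4 had 3 control and 4 knockdown regions, and each control region had a partner. The most enriched in the control list ran from chr22 39928709 to 39929060 with a fold of 9.87 and 15 reads, and from 39928708 to 39929116 with a fold of 8.52 and 17 reads in the knockdown list. Its log2 ratio was -0.24 (-1.33 to 0.86). The middle pair had 10 and 12 reads and a log2 ratio of -0.16 (-1.50 to 1.21). Beside it a knockdown region with a fold of 5.27 and 9 reads lay 246 bp from the control region and had no partner.

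The remaining ATF4 pair had more reads in the knockdown library than depth would give. At chr22 39898209 to 39898406 the control library had 6 reads and a fold of 5.65, in the top 61.9% of its list. In the knockdown library the region ran from 39898130 to 39898411 with 17 reads and a fold of 12.2, in the top 11.8% of its list, and the summits were 5 bp apart. The depth-scaled log2 ratio was 1.08 (-0.33 to 2.71), which includes no difference. It was the highest of the 13 pairs, and 98.9% of all pairs in the genome had a ratio as low or lower. Local reads in 10 kb were at most 25.5 with the control shRNA and 53 with the SMARCA4 shRNA, where an equal level would give at most 36.2. By gene order MIURF and MIEF1 come before ATF4 and RPS19BP1 after it, and to which of these genes the region belongs was not determined.

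Over the 13 pairs, summits were stacked nearly as in the rest of the genome. The median log2 ratio scaled to depth was -0.18, with a range from -0.52 to 1.08, against -0.24 over 33358 pairs (interquartile range -0.62 to 0.08). Above 0 were 3 of the 13, with 2 at JUNB and 1 at ATF4, or 23.1%, against 29.7% of all pairs. At least 2-fold lower in the knockdown library were 0 of 13, where 11.0% of all pairs were. At least 2-fold higher was 1 of 13, the ATF4 pair of 6 and 17 reads, where 1.38% of all pairs were. The counting interval included 0 for 13 of the 13 pairs. Relative to the genome median 4 pairs were lower, at FOS (3) and JUN. The stronger regions of FOS and JUN thus had ratios below that median, each by less than its counting error.

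**Figure D2:**
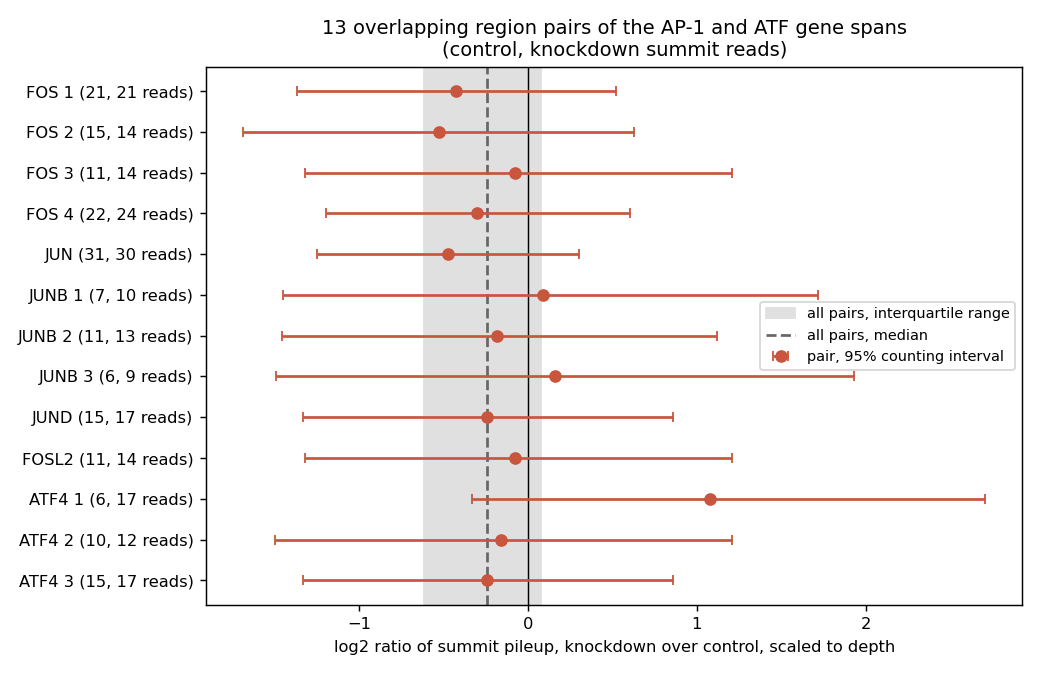
Log2 ratio of summit pileup, knockdown over control and scaled to depth, for the 13 overlapping pairs, with 95% counting intervals; numbers in brackets are control and knockdown summit reads. The dashed line is the median of all 33358 pairs and the grey band their interquartile range; all 13 intervals cross 0, and the first ATF4 pair from the top (6 and 17 reads) is the highest at 1.08.

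Reads in the wider surroundings of the members were also compared. In 12 pairs both libraries had a local background above the lowest value of their list, so that the reads in the surrounding 10 kb could be recovered. The knockdown library had a median 1.48 times the control reads there, against 1.29 times over 27933 pairs of the genome and 1.42 times for the whole libraries. The ratio was lowest at the merged FOS place (0.966), counted for each of the 2 pairs there, and the highest of these 12 was at the most enriched ATF4 control region (66 and 125 reads, 1.89). The ATF4 pair left out, with at most 25.5 control reads and 53 knockdown reads, would lie higher still. Relative to these local reads the median log2 ratio of summits was -0.26 in the spans and -0.13 over the genome.

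**Figure D3:**
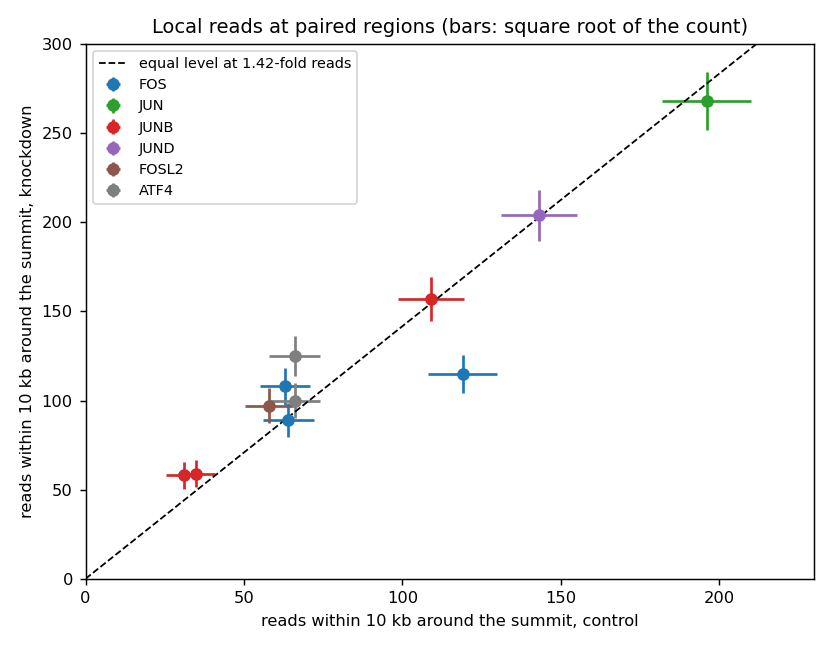
Reads in the 10 kb around the summit in the control library (x axis) and the knockdown library (y axis) at paired regions, coloured by gene, with bars of the square root of each count; the dashed line is an equal level at 1.42 times the reads. 8 points lie above the line, and the merged FOS place, with 119 and 115 reads, lies farthest below it.

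Members with a partner had higher median folds than those without, which held for the whole lists too. Over all control regions the median folds were 7.91 with and 4.95 without a partner, and over all knockdown regions 7.87 and 5.30. The 19 control members had 6.79 as median fold and 223 bp as median width, where the list has 6.45 and 161 bp. Those with a partner, 13 of 19, had folds from 5.42 to 14.4 (median 6.83), and the other 6 had folds from 3.99 to 8.90 (median 5.81). Among knockdown members the corresponding ranges were 5.31 to 12.7 (median 7.41) and 4.85 to 6.14 (median 5.21). All 19 knockdown members had a median fold of 6.6, below the 7.04 of their list, unlike the control members. Their median width was 222 bp, where that list has 163 bp. The unpaired members at FOS, JUNB, FOSL2 and ATF4 lay within 2 kb of a region of the other list, while those at BATF, BATF3, JUN and the one at JUND lay 9.86 to 58.9 kb away.

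**Figure D4:**
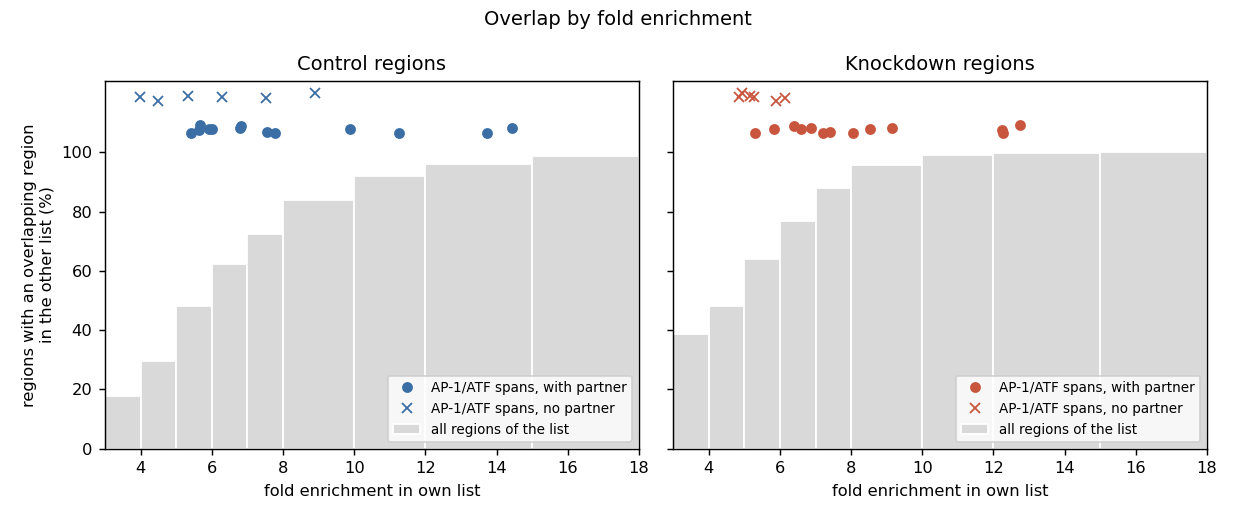
Grey bars give the share of all regions with an overlapping region in the other list by fold enrichment (the last band is open upwards and drawn to 18, and the axis begins at 3); symbols above the bars mark the fold of each member, circles with and crosses without a partner, and have no height of their own. Crosses reach a fold of 8.90 in the control list, at JUN, and 6.14 in the knockdown list, at FOS.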

How the data were processed

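ATAC-seq was run on 2 libraries of Z-138, with 1 deposited peak list each. Per the submitters' processing notes, bcl2fastq 2.17.1.14, BWA, MACS2 and hg19 were used, with parameters and other versions not stated there. The deposited peak names carry the terms sort and rmdup, which usually stand for sorting and removal of duplicates. In the authors' deposited fold, a ratio, 1 read is added to both summit reads and background. Summits are described by the deposited −log10 p and q values, and the deposited score is the −log10 q-value times 10 and was not used further. Each fold refers to the background of its own list, so folds are given side by side only.

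Summit pileups and backgrounds were solved from fold and p-value with a Poisson tail (scipy 1.17.1), and gave back the deposited −log10 p within 4.2e-05. On simulated peaks the pileup was recovered for 2000 of 2000 in each list. Depth scaling used the ratio of the lowest backgrounds, 0.322 and 0.24 reads. Backgrounds above these are whole reads per 10 kb, within 0.02 reads. The summit needed to enter the other list was computed from that list's weakest p-value and the local reads scaled to read number, and ignores the minimum width. Summits expected at equal accessibility scale the called summit by depth alone. They leave out that the median depth-scaled ratio, knockdown over control, was 0.845 over all pairs. Chromosomes 1 to 22 and X were used, and partners overlapped by at least 1 bp. A control region with several partners was paired with the one of most summit reads. Intervals of ratios are exact conditional binomial intervals at 95%.

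The rule for named regions took the most enriched region of each span and list, regions of at least 600 bp, and unpaired regions with a fold of at least 6. Other regions were described after their values were seen. The genes, spans and lists were chosen with earlier results of these data known. Promoter sequences are from RefSeq, GRCh38.p14, with the first start listed for each gene. Gene neighbours come from RefSeq gene order.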

Additional observations from a re-analysis of the deposited data

How the results depend on the processing

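Most values kept within their counting intervals under other settings. The share of control regions overlapped, 68.4%, ranged from 52.6% (50% of both regions) to 80.0% (q-value of at most 1e-05), and was 54.5% with wider spans. For knockdown regions the share of 68.4% became 89.5% when a gap of 500 bp was allowed, since unpaired regions at FOS, JUNB, FOSL2 and ATF4 lie that close to a partner; under the other settings it ranged from 52.6 to 80.0%. Knockdown regions as a percent of control regions ranged from 75.8% (wider spans) to 111.8% (lists of equal length, or without BATF). The median log2 ratio of -0.18 ranged from -0.26 (local reads) to -0.16 (without FOS), and was 0.06 when the genome median was set to 0; scaling to the genome median moves all pairs by 0.24. Pairs of 1 control and 1 knockdown region, a setting chosen after seeing the data, gave -0.17. BATF and BATF3 had 0 partners under each setting of overlap, q-value and list length, though only 1 BATF region was left at 1e-05. These settings could not have given a partner there. The nearest knockdown regions lay 34.0 to 58.9 kb away, far beyond the gap of 500 bp, and stricter settings only remove regions or partners. No paired analysis was possible because each group has 1 library, and leaving out a replicate was not possible for the same reason. Summits of 6 to 31 reads limit every ratio.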

Other observations

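Between the FOS and BATF spans, from 75.77 to 75.96 Mb of chromosome 14, the control list held 5 regions and the knockdown list 0, where 39.5% of all control regions have no partner. By gene order JDP2 is the protein-coding gene there. The 5 regions are among the 7 of the 281 kb stretch described above, so they are not a separate observation. That stretch was bounded by knockdown regions and singled out after its values had been seen, so the 0 was set by that choice. The most enriched of the 5 ran from 75893478 to 75893625 with a fold of 6.59 and 8 reads, and another, from 75894606 to 75894699, reached 5.85 with 7 reads. The other 3 had folds from 4.03 to 4.84 and 4 or 5 reads. Over the genome a partner was found for 62.3% of control regions with a fold from 6 to below 7, 48.3% from 5 to below 6 and 29.5% from 4 to below 5. The region nearest to FOS lay 7.35 kb from a knockdown region and the remaining ones over 100 kb.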
